A study of Mus musculus with 8 samples.

Results

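Genes that move mitochondria along axons or hold them in place were examined in the cortex of Nuak1 KO and WT mouse embryos at E18.5. The members were 8 genes chosen by symbol, namely Rhot1, Rhot2, Trak1, Trak2, Snph, Armcx1, Armcx3 and Mcu. Of these, 7 have a row among the 21165 rows of the count table and all 7 passed the filter on low counts, which left 12699 genes tested. Mcu was not analysed here. RNA came from microdissected cortices of 4 KO and 4 WT embryos of a constitutive Nuak1 KO line, kept on a C57Bl/6JRj background, in which the kinase is missing from every cell and not from neurons alone. KO pups die at birth, which sets the last age at which this tissue can be collected. By the labels, 2 KO embryos and 1 WT embryo were male and the embryos came from 3 litters, but the names of the count columns carry neither, so sex and litter were not used. Libraries are named by genotype and by the running number of their column, as in KO R1.

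Mitochondria travel along axonal microtubules on kinesin and dynein motors. The outer membrane GTPases Miro1 and Miro2, encoded by Rhot1 and Rhot2, and the adaptors encoded by Trak1 and Trak2 link them to these motors, and calcium binding to Miro halts the movement. Syntaphilin, encoded by Snph, anchors mitochondria to axonal microtubules, and the X-linked Armcx genes encode outer membrane proteins that bind the Miro and Trak complex. NUAK1 is known to act on the capture of mitochondria at presynaptic sites in cortical axons. The comparison of KO with WT therefore asks whether transcripts of this machinery differ in level when the kinase is absent.

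None of the 7 genes was called different between KO and WT, with 0 under an adjusted p of 0.05 and 0 under an unadjusted p of 0.05 in edgeR's quasi-likelihood test, and likewise 0 and 0 with DESeq2 and in edgeR without KO R1. Among all genes tested, 0.0709% were under the adjusted and 7.69% under the unadjusted threshold. Log2 fold changes of KO over WT lay between -0.28 for Snph and 0.11 for Armcx3, with 2 genes higher and 5 lower and a median of -0.05, beside a median of -0.01 over all genes tested. Of the 2 counted as higher, Trak1 had a fitted value next to 0 and a KO mean just below its WT mean. In none of the 7 genes did the KO libraries lie wholly apart from the WT libraries, as they did in 4.49% of all genes tested. For Rhot1, Rhot2, Trak1 and Trak2 the intervals of the difference were narrow, and for Snph the interval was wide.

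Libraries held between 9643711 counts, in WT R4, and 27014858 counts, in KO R3. Nuak1 itself had between 11.1 and 20.5 normalized counts in KO and between 877 and 1445 in WT, so the columns followed their genotype labels. To put libraries on one scale, counts were divided by the effective size of their library and multiplied by the mean of these sizes, and such values are called normalized counts. Of 12 markers of cortical projection neurons 11 have a row. Their sum was lowest in WT R4, at 49427 normalized counts, and lay between 55393 and 61348 in the other libraries. The sum of 10 interneuron markers was highest in WT R4, at 4180, beside 3206 to 3748 elsewhere. Progenitor markers, also 10, summed to between 24502 and 33980 normalized counts. The sum of 9 meningeal fibroblast markers was 10681 in KO R1 and between 367 and 661 in the other libraries, so values that move with KO R1 are given with and without it. KO R1 was also the highest library for endothelial markers, with a sum of 5778 normalized counts beside 3545 to 4427 elsewhere, and for microglial markers, with 1112 beside 551 to 789. Red blood cell markers summed to 7064 in KO R2 and 5525 in KO R1, beside 1596 to 3812 elsewhere. The part of these markers in the values of the members was not tested. In whole tissue, fewer cells of a type and less RNA per cell cannot be told apart.

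Rhot1, on chromosome 11 of NCBIM37 (the assembly behind mm9, to which the reads were mapped) from 80022521 to 80081409 on the plus strand, had 2076, 2208, 2253 and 2084 normalized counts in KO R1 to R4. In WT R1 to R4 it had 2140, 2229, 2339 and 2213. The KO and WT values were interleaved, and the lowest was in KO R1. The log2 fold change was -0.05 (standard error 0.05, adjusted p = 0.868 from edgeR), and the 95% interval of the change ran from -10.6% to 4.47%. It was -0.02 without KO R1 and -0.02 without WT R3, and -0.07 at the lowest with 1 library left out. The transcript of Miro1 thus differed by less than the spread between libraries, whose coefficient of variation was 4.14% in KO and 3.67% in WT.

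Rhot2 (chromosome 17, 25975784 to 25981796, minus strand) had 1021, 1078, 1093 and 1228 normalized counts in KO R1 to R4 and 1202, 1093, 1087 and 1230 in WT R1 to R4. The highest library of each genotype was R4, and these libraries held nearly the same level. Its log2 fold change was -0.06 (standard error 0.07, adjusted p = 0.896 from edgeR), with a 95% interval of the change from -13.8% to 7.14%. The size of the difference rested on single libraries, since it was -0.01 without KO R1, -0.02 without WT R4 and -0.11 without KO R4. The gene overlaps Wdr90 on the same strand, and 2.46% of the 50-base stretches of its transcripts also occur in Wdr90, so reads there cannot be assigned with certainty. No such stretch of the other 6 genes occurred in the coding transcripts of another gene.

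Trak1 (chromosome 9, 121206620 to 121384034, plus strand) encodes the adaptor that favours entry of mitochondria into axons. It had 2323, 2311, 2346 and 2534 normalized counts in KO R1 to R4 and 2478, 2143, 2432 and 2466 in WT R1 to R4. The KO mean was 2378 ± 105 (SD, n = 4) and the WT mean 2380 ± 159, the closest means among the 7 genes. The log2 fold change was 0.00116 (standard error 0.06, adjusted p = 0.998 from edgeR), and its sign turned without KO R4 or without WT R2. The 95% interval of the change ran from -8.68% to 9.68%.

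Trak2 (chromosome 1, 58957293 to 59030274, minus strand) encodes the adaptor better known from dendritic transport. It had 1384, 1394, 1353 and 1265 normalized counts in KO R1 to R4 and 1366, 1372, 1391 and 1346 in WT R1 to R4. WT libraries were within a coefficient of variation of 1.36%, the smallest of the 7 genes, and KO R4 was the only library below the WT range. The WT spread was smaller than the counting error of 2.14% to 3.54% per library. The log2 fold change was -0.02 (standard error 0.05, adjusted p = 0.949 from edgeR), with a 95% interval of the change from -8.94% to 6.40%. Its direction turned without KO R4, where the log2 fold change was 0.00819.

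**Figure D1:**
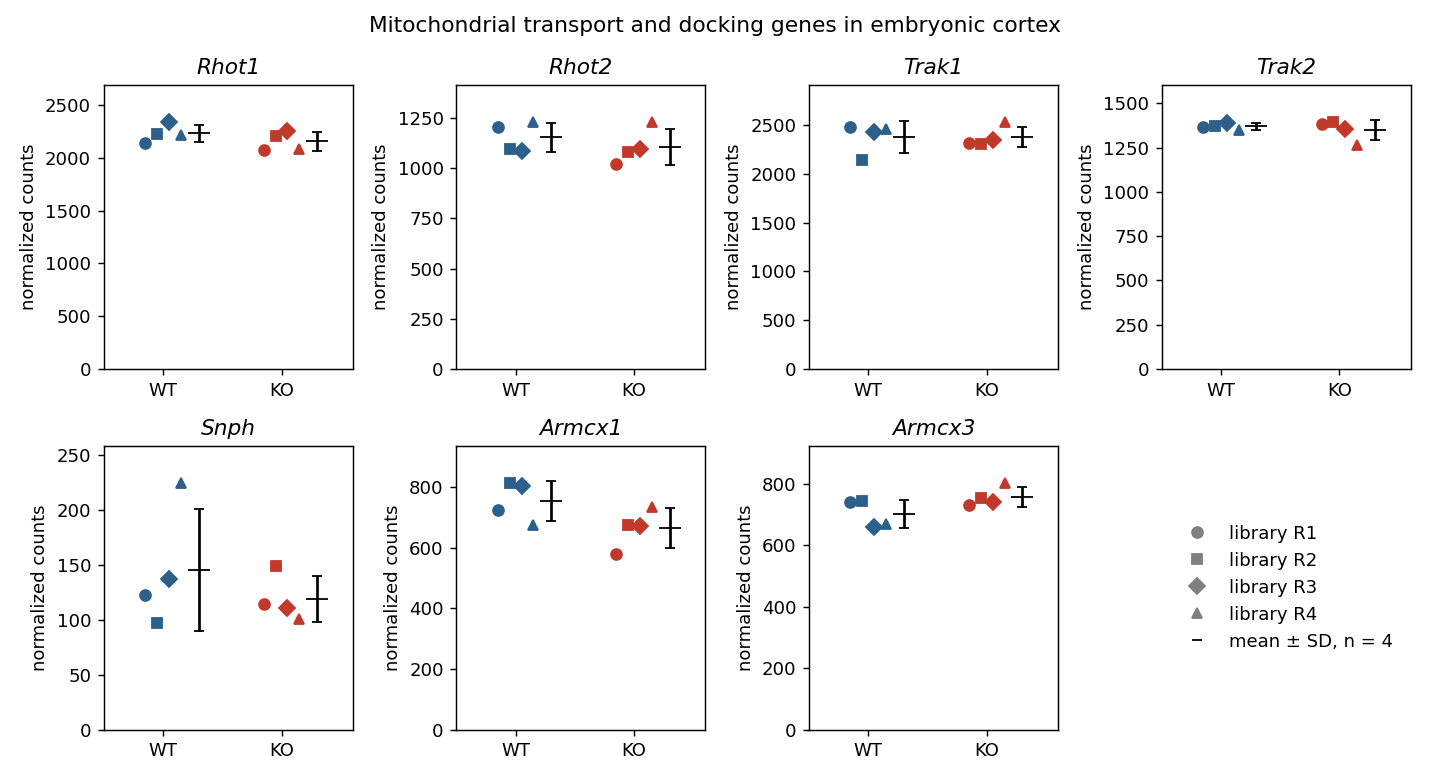
Normalized counts (vertical axes, from 0) of the 7 genes in each WT (blue) and KO (red) library, with the marker shape giving the running number and the black bar the mean ± SD of 4 libraries. The genotypes overlap in every panel, and WT R4 stands above the other libraries for Snph at 225 normalized counts.

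Snph had the lowest level and the widest spread. The gene spans chromosome 2 from 151416285 to 151458329, minus strand, and between 89 and 179 reads per library were counted on it. KO R1 to R4 held 114, 149, 111 and 101 normalized counts and WT R1 to R4 held 122, 97.3, 137 and 225. WT R4 was above all other libraries, and WT R2 was below all of them. The log2 fold change was -0.28 (standard error 0.24, adjusted p = 0.833 from edgeR), and the 95% interval of the change ran from -42.6% to 17.7%, so changes of that size in the transcript of the docking protein could not be told from none. Counting error was between 7.47% and 10.6% per library, whereas the coefficient of variation over WT libraries was 38.1%. Without WT R4 the WT mean was 119 ± 20.3 (SD, n = 3) in place of 145, beside 119 ± 21.1 (SD, n = 4) in KO, and the log2 fold change was -0.00755 (adjusted p = 0.989 from edgeR). The difference in Snph thus rested on WT R4, which also had the fewest counts, the lowest sum of projection neuron markers and the highest sum of interneuron markers. The part of cell composition in its Snph value was not tested.

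Armcx1 and Armcx3 lie 34.7 kb apart on the plus strand of the X chromosome, Armcx1 from 131252502 to 131256456 and Armcx3 from 131291134 to 131295994. Armcx1 is known for promoting mitochondrial transport in axons. It had 578, 675, 671 and 735 normalized counts in KO R1 to R4 and 725, 814, 803 and 674 in WT R1 to R4. Most KO libraries were below most WT libraries, but KO R4 was above WT R1 and WT R4, and KO R2 was level with WT R4. Its log2 fold change of -0.18 (standard error 0.09, unadjusted p = 0.0628, adjusted p = 0.679 from edgeR) had the smallest p of the 7 genes, at rank 1174 of 12699. The 95% interval of the change ran from -22.9% to 0.799%. The gene was lower in KO in all 8 fits that each left out a library, and its unadjusted p from edgeR was under 0.05 in 2 of them, at 0.031 without KO R4 and 0.0251 without WT R4, though the adjusted p stayed at 0.761 and 0.342. Without KO R1, the library high in meningeal markers, which had the lowest Armcx1 level, the KO mean was 694 ± 35.4 (SD, n = 3) and the log2 fold change was -0.11 (adjusted p = 0.936 from edgeR). The part of meningeal tissue in the Armcx1 value of that library was not tested.

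Armcx3, whose product binds Miro and Trak at the outer membrane, had 732, 753, 741 and 803 normalized counts in KO R1 to R4 and 740, 744, 658 and 669 in WT R1 to R4. WT R3 and WT R4 were the lowest and KO R4 the highest, while KO R1 lay below WT R1 and WT R2. Its log2 fold change was 0.11 (standard error 0.07, adjusted p = 0.778 from edgeR), with a 95% interval of the change from -2.72% to 19.1%, and it was higher in KO in all 8 fits with a library left out.

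Paralog pairs were also set side by side as the share of 1 member in the counts of both, which does not depend on library size. Of the counts of Rhot1 and Rhot2, Rhot1 took 66.1 ± 2.14% (SD, n = 4) in KO and 65.9 ± 2.09% in WT. Of the counts of Trak1 and Trak2, Trak1 took 63.8 ± 1.99% (SD, n = 4) in KO and 63.4 ± 1.71% in WT. For both pairs the means differed by less than 1 SD and the libraries overlapped.

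In the Armcx pair the genotypes did not overlap, which was also so for the levels of 4.49% of all genes tested. How often the shares of pairs beyond these 3 lie apart was not examined. Armcx1 took 44.1, 47.3, 47.5 and 47.8% of the counts of Armcx1 and Armcx3 in KO R1 to R4, and 49.5, 52.2, 55.0 and 50.2% in WT R1 to R4. The mean KO share was 46.7 ± 1.71% (SD, n = 4) and the mean WT share 51.7 ± 2.46%, a difference of -5.05 percentage points. This difference lay between -5.79 and -3.97 with each library left out, and was -4.20 without KO R1. The share is a description without a test, 1 of 3 pairs looked at, and neither gene of the pair was called on its own. Both genes are X-linked, and 2 KO embryos but 1 WT embryo were male. The part of sex in the share was not tested.

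**Figure D2:**
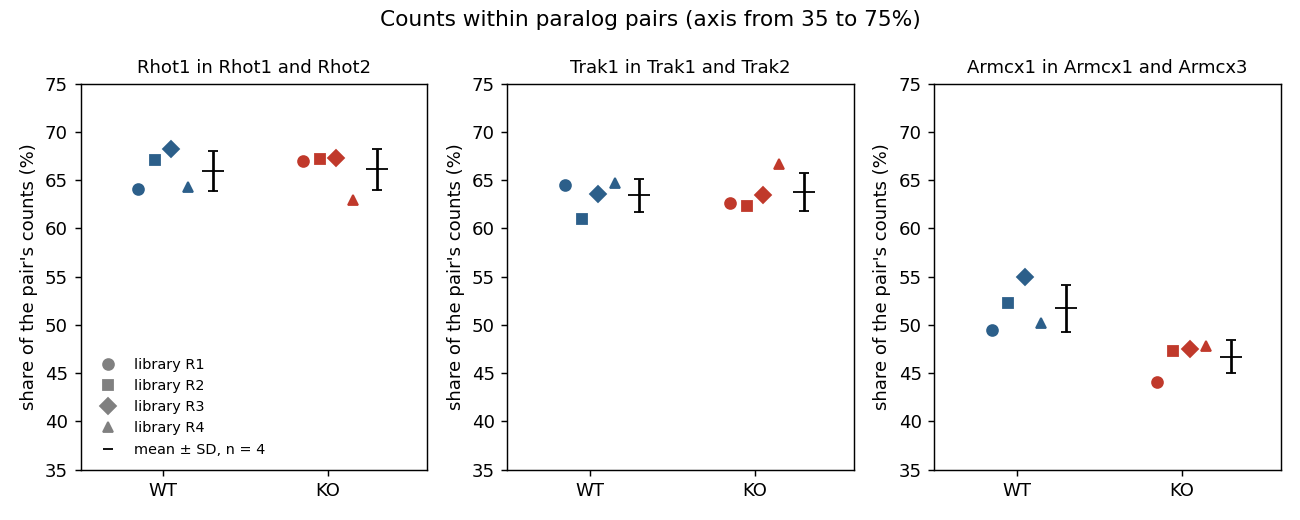
Share of the first gene in the counts of each paralog pair, in percent (vertical axes from 35 to 75%), in each WT (blue) and KO (red) library, with the mean ± SD of 4 libraries in black. KO shares of Armcx1 lie between 44.1 and 47.8% and WT shares between 49.5 and 55.0%, while the other pairs overlap.

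Levels of different genes were compared per kilobase of exon. On this scale Trak1 had 432 ± 28.9 normalized counts per kilobase in WT (SD, n = 4), Rhot2 410 ± 26.2, Rhot1 315 ± 11.6, Armcx1 234 ± 20.6, Armcx3 198 ± 12.9, and Trak2 193 ± 2.62. Snph had between 12.4 and 28.6 normalized counts per kilobase in WT. Trak1 overlapped with Rhot2, Armcx1 with Armcx3, and Armcx3 with Trak2 over the WT libraries, so the order within these pairs is not settled. Rhot1 lay apart from its neighbours on both sides in KO as in WT. In KO the levels lay between 419 and 460 for Trak1 and were 393 ± 31.2 for Rhot2, 305 ± 12.6 for Rhot1, 214 ± 9.05 for Armcx3, 206 ± 20.1 for Armcx1, 190 ± 8.25 for Trak2 and 15.1 ± 2.68 normalized counts per kilobase for Snph (SD, n = 4 each). With the union of exons as length, Armcx1 and Armcx3 thus changed places, within overlapping ranges.

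The place of Rhot1 depended on the length used. Its 9 annotated transcripts have a union of exons of 7077 bases and the longest holds 4260. Per kilobase of the longest transcript the mean over all 8 libraries was 515 normalized counts for Rhot1, 487 for Trak1 and 402 for Rhot2, so Rhot1 moved above both. With that length the mean was 294 for Armcx1 and 209 for Armcx3. Armcx1 then lay above Armcx3 in KO as in WT, so their change of places also depended on the length. Trak1 stayed above Trak2 with either length, by 2.24 ± 0.16 times in WT and 2.27 ± 0.21 times in KO per kilobase of exon (SD, n = 4 each). Snph stayed lowest with either length, and Rhot1 exceeded it by 18.7 ± 5.96 times in WT and 20.6 ± 3.01 times in KO per kilobase of exon (SD, n = 4 each).

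**Figure D3:**
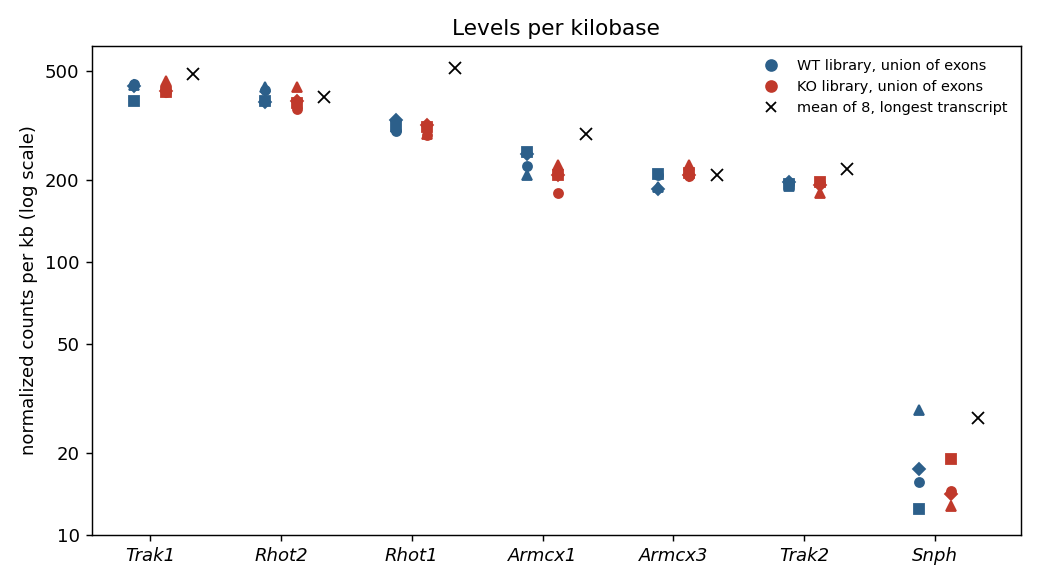
Normalized counts per kilobase of exon (log axis) for the 7 genes in each WT (blue) and KO (red) library, with the marker shape giving the running number, and crosses for the mean of all 8 libraries per kilobase of the longest transcript. Snph lies between 12.4 and 28.6, where the next lowest point of the others is at 179, and the cross of Rhot1 at 515 lies above its points.

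Other genes of the pathway were taken from 4 lists, with 46 genes of which 42 were tested. None was under an unadjusted p of 0.05 in edgeR or in DESeq2, where 7.69% of all genes tested were in edgeR, and none had an absolute log2 fold change over 0.25, where 13.6% of all genes did. There were 12 genes higher and 30 lower in KO, with a median log2 fold change of -0.04, beside 5794 higher and 6905 lower among all genes tested. The medians of all 4 lists moved towards 0 or past it without KO R1, and all 4 also moved towards 0 without WT R3. Each of the 4 medians moved further without KO R1 than without WT R3. The part of single libraries in these medians was not tested. Genotypes overlapped in all 42.

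Partners of Miro and Trak were tested for 12 of 15 genes, with 2 higher and 10 lower in KO and a median log2 fold change of -0.07. This median was -0.01 without KO R1, -0.03 without WT R2 and -0.03 without WT R3. The other X-linked Armcx genes tested had log2 fold changes of 0.03 for Armcx2, -0.06 for Armcx4 and -0.08 for Armcx6, so the 5 Armcx genes tested split into 2 higher and 3 lower. Ogt, the enzyme that adds O-GlcNAc to proteins including Trak1, had a log2 fold change of -0.04 (adjusted p = 0.931 from edgeR). Pink1, the kinase that marks damaged mitochondria and acts on Miro, had 0.04 (adjusted p = 0.949 from edgeR). Myo19, a mitochondrial myosin held by Miro, had -0.08 (adjusted p = 0.914 from edgeR). Armcx5 had 0 counts in every library and Mgarp had 50 counts over all libraries, so they were not tested. Armcx5 overlaps Gprasp1 on the same strand, and the part of this overlap in its 0 counts was not tested.

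On the kinesin side 2 of 10 genes were higher and 8 lower, with a median log2 fold change of -0.04, which was -0.02 without KO R1 and -0.01 without WT R4. The heavy chains of kinesin-1, the motor bound by Trak proteins, had log2 fold changes of -0.06 for Kif5a, -0.07 for Kif5b and -0.04 for Kif5c, with standard errors between 0.05 and 0.06. Sybu, which encodes the adaptor syntabulin, had the smallest p of the 42 genes, with a log2 fold change of 0.11 (unadjusted p = 0.135, adjusted p = 0.777 from edgeR). On the dynein side 5 of 13 genes were higher and 8 lower, with a median of -0.01, which turned to 0.00748 without KO R1 and 0.0001 without KO R4. Dync1h1, the dynein heavy chain, had -0.09 (standard error 0.06), and Dynll1, a dynein light chain known to bind syntaphilin, had 0.06 (standard error 0.05).

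Genes of mitochondrial calcium handling, among them partners of the uniporter pore encoded by Mcu, were tested for 7 of 8. Of these, 3 were higher and 4 lower in KO, with a median log2 fold change of -0.05. This median was -0.01 without KO R1 and -0.09 without WT R2, and it turned to 0.01 without WT R4. Among the regulators of the pore, log2 fold changes were -0.09 for Micu2 and 0.05 for Micu3, with standard errors of 0.07 each. Mcub, which encodes the inhibitory pore subunit, had -0.17 (standard error 0.22), and Mcur1 0.24 (standard error 0.19). The last 2 were counted on few reads and their intervals were wide.

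**Figure D4:**
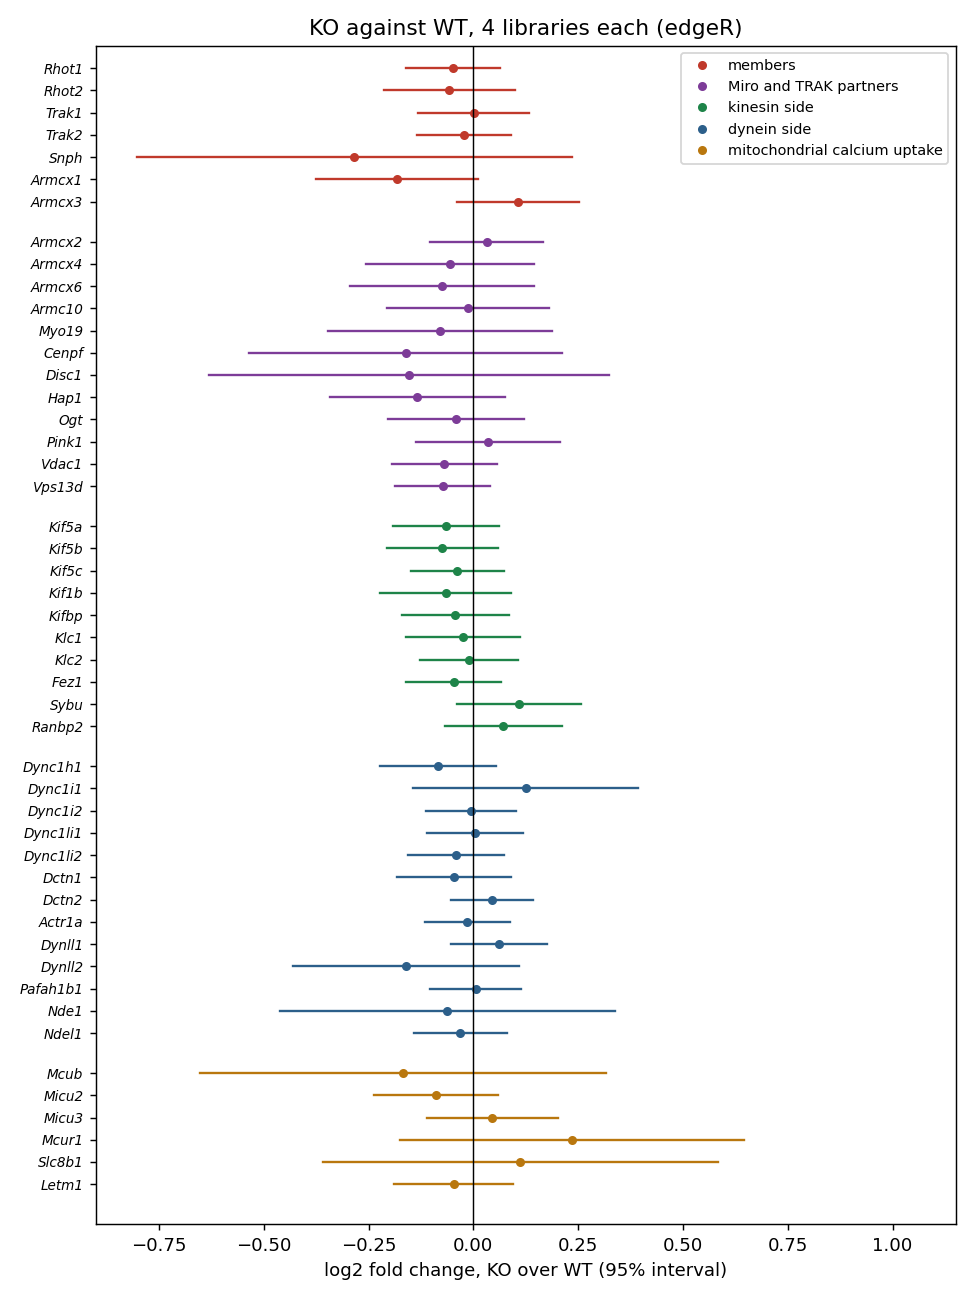
Log2 fold change of KO over WT (horizontal axis) with its 95% interval for the 7 members (red) and for tested genes of the 4 pathway lists (1 of the 42 is not shown), from edgeR on 4 libraries per genotype. Every interval includes 0, and those of Snph, Disc1, Mcub, Mcur1 and Slc8b1 are among the widest.

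The genes whose levels ran most like a member over the 8 libraries were searched among the 12698 other genes tested, by Pearson correlation of log2 normalized counts, as a description only. For Snph they included Hes5 (r = 0.975) and Dact1 (r = 0.969). Hes5, a Notch target of neural progenitors, had 255 normalized counts in WT R4 and between 109 and 175 elsewhere. It thus shared the high value of WT R4 with Snph. The other progenitor markers were split in WT R4. Sox2 and Fabp7 were also highest there, Pax6, Vim, Eomes, Mki67 and Top2a were lowest, and Hes1 and Nes lay between. Rhot1 ran most like Rfc3 (r = 0.981), Rhot2 like Rabggta (r = 0.953), Trak1 like Abcg4 (r = 0.963), Trak2 like Uchl5 (r = 0.919), Armcx1 like Angel2 (r = 0.980) and Armcx3 like 2310001A20Rik (r = 0.990). The closest gene of each member thus had an r between 0.919 and 0.990, with no member standing apart. Each is the largest of 12698 values over 8 libraries, and how high such a largest value runs for unrelated genes was not tested.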

How the data were processed

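Poly-A RNA of 8 cortices was sequenced from stranded libraries as paired reads. Prinseq and Cutadapt 1.13 were used by the authors for trimming, TopHat2 2.0.13 for mapping to mm9, Samtools 0.1.19 for handling alignments, and HTSeq-count for counting. The authors deposited whole-number counts without normalization. The strand setting of the counting is not given in the sources used here.

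Columns were grouped by the genotype in their names, and 0 columns were left unused. The quasi-likelihood test of edgeR 4.0.16 (R 4.3.3) was run after filterByExpr and TMM scaling, with Benjamini-Hochberg adjustment over all genes tested. The standard error is the size of the log2 fold change divided by the square root of F, and 95% intervals use the degrees of freedom of that fit. Counting errors cover the sampling of reads only. DESeq2 1.42.0 was an alternative, as were its size factors, a stricter filter (10 counts in each library), no filter, and each library left out. On simulated counts of 12699 genes for this comparison, 39 of 67 true log2 changes of 0.5 were called, and 59 of 67 of size 1. Positions and lengths are from GENCODE for NCBIM37.

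The members and lists were chosen with earlier results of these data known. Named genes are the members, Nuak1, pathway genes under an unadjusted p of 0.05 (there were 0), progenitor markers set beside Hes5, and the nearest patterns. Of these patterns, the nearest for each member and a further one for Snph are printed. A few genes of these lists and patterns are counted but not reported here by name. Other pathway genes were named after their values were seen, for their role.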

Additional observations from a re-analysis of the deposited data

Results flagged for a closer look

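A library is given here where it stood far from the other 3 of its genotype by Dixon's test at the 95% level. Among 34 sets of 4 libraries examined, 6 had such a library, where chance gives about 1.7. Among the members, Trak1 had a high library in KO, R4 with 2534 normalized counts, and a low one in WT, R2 with 2143. The share of Rhot1 in the Rhot pair was low in KO R4 at 62.9%, and that of Armcx1 in the Armcx pair was low in KO R1 at 44.1%. Among marker lists, KO R1 stood apart with a meningeal fibroblast sum of 10681 normalized counts and a cortical projection neuron sum of 55468, the lowest of the KO libraries. The part of these marker levels in the member values of KO R1 was not tested.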

How the results depend on the processing

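No paired analysis was possible because the labels carry no replicate number and the columns no litter, embryo or sex. With every alternative scaling, filter, tool and library left out, 0 of the 7 members passed an adjusted p of 0.05. Members under an unadjusted p of 0.05 in edgeR went from 0 to 1 without KO R4 or without WT R4, in both cases Armcx1. Each of the 4 pathway lists went from 0 to 1 such gene, the calcium list without KO R2, both motor lists without WT R2 and the partner list without WT R4. Over all genes, 9 past an adjusted p of 0.05 became 69 with DESeq2 and lay between 2 and 11 when single libraries were dropped. The cause was not tested.

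Log2 fold changes of Trak1 reversed to -0.03 without KO R4 and -0.05 without WT R2, and that of Trak2 to 0.00819 without KO R4. When single libraries were dropped they lay between -0.0468 and 0.0269 for Trak1 and between -0.0272 and 0.00819 for Trak2, from -0.44 to -0.00755 for Snph, from -0.23 to -0.11 for Armcx1, from -0.07 to -0.02 for Rhot1 and from -0.11 to -0.01 for Rhot2. The members other than Trak1 and Trak2 kept their direction in every such fit, and all 7 kept it under the other settings. With the longest transcript as length, mean levels over 8 libraries moved from 310 to 515 normalized counts per kilobase for Rhot1, 431 to 487 for Trak1, 192 to 220 for Trak2, 16.8 to 26.9 for Snph and 220 to 294 for Armcx1, because the divisor is shorter. For Snph, the spread between WT libraries exceeded the counting error.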
